A study of Marchantia polymorpha with 9 samples.

Results

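In thalli of the liverwort Marchantia polymorpha, 102 of 19287 gene IDs were both higher in the genotype labelled OX and lower in the genotype labelled KO than in WT. They were chosen on their levels in CPM, each gene's count divided by its library's total and scaled to a common library size. The mean of the OX libraries had to be at least 1.5 times, and the mean of the KO libraries at most 0.667 times, the WT mean, with 0.1 CPM added to each mean. All OX libraries had to lie above all WT libraries, all KO libraries below all WT libraries, and at least 1 genotype had to average 1 CPM. The 113 Y-chromosome IDs and 578 IDs on scaffolds with fewer than 3 gene IDs were skipped, which left 18596 IDs, 12578 of them at the required level, so that the members made up 0.811% of the latter. Because these levels chose the members, the differences of OX and KO from WT given below describe them and are not evidence for them.

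The series concerns MIXTA-related MYB transcription factors and the plant cuticle. Its samples are thalli of male plants of the Cambridge strain, 3 libraries each of WT, OX and KO, raised from gemmae on solid Gamborg's B5 medium under long days (16 h of light, 8 h of darkness; 22 °C) and taken at 10 days of age. The labels give the genotypes only by these letters, taken to stand for wild type, an overexpressor and a knockout, and name neither the gene nor the promoter or lesion used. The design describes replicates of a line, so each genotype stands for 1 line as far as the labels show, and a difference between genotypes cannot be told apart from a difference between lines. All groups share the strain, sex, age and growth conditions.

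As background, the thallus is the haploid, photosynthetic body of a liverwort, and gemmae are its clonal propagules. MYB proteins are transcription factors that bind DNA through repeated helical domains, and the MIXTA branch is named after a snapdragon regulator of conical petal cells; relatives in flowering plants act on epidermal cell shape and on genes for cutin and wax. The cuticle is the lipid layer of cutin and waxes on the outer face of epidermal cells that limits water loss.

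The deposited table does not pair its gene IDs with names, and 0 of them matched the name table at hand, so no function, sequence or position on a chromosome is given for any member. The row of the gene that was altered was not identified, and whether it is a member is not known. Marker genes of the thallus could not be checked for the same reason. IDs do carry a scaffold and a gene number that orders genes along it, and genes are also referred to by these below.

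Library totals ranged from 44802998 to 57696744 counts, WT replicate 2 being the lowest, and all 173583 values in the table were even, so that 2 counts appear to stand for 1 read pair. A count of 0 allows up to 3 pairs, or 0.104 to 0.134 CPM in these libraries. That limit and the counting intervals below cover counting error only. The labels do not say whether the replicates came from separate cultures, although the design calls them biological.

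**Figure D1:**
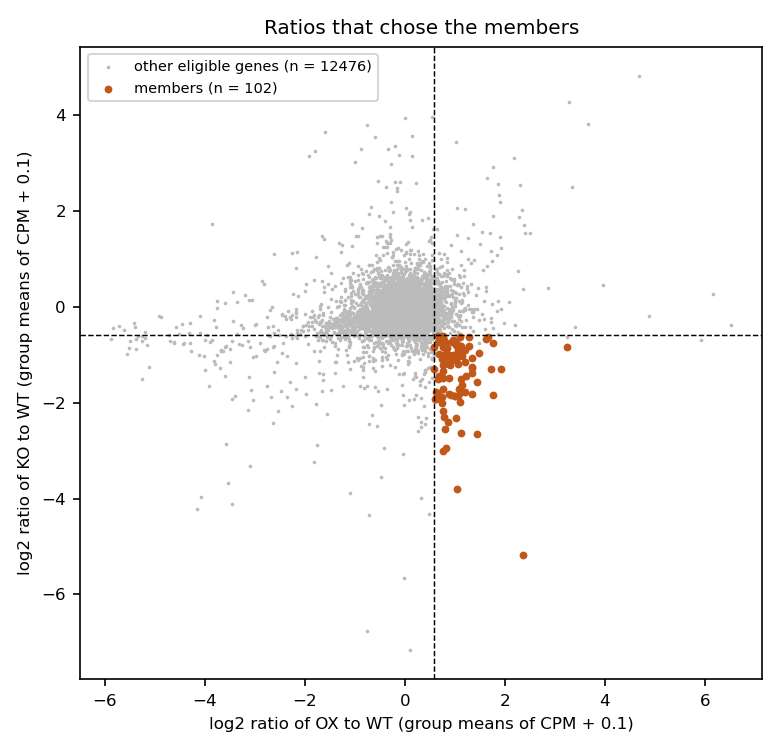
Log2 ratio of OX to WT (horizontal) and of KO to WT (vertical) for the 12578 eligible genes with a genotype mean of at least 1 CPM, each ratio taken between group means after adding 0.1 CPM. The 102 members (orange) fill the lower right corner beyond the dashed lines that mark the minimum ratios, most of them close to the corner, with 1 gene far below at -5.17 and 1 far to the right at 3.25.

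The members together took a small but sharply graded share of the RNA counted. They held 0.234%, 0.227% and 0.246% of the counts in WT replicates 1 to 3, 0.453%, 0.429% and 0.457% in those of OX, and 0.0762%, 0.0780% and 0.0818% in those of KO. The mean share was 0.236% ± 0.0093 in WT, 0.446% ± 0.015 in OX and 0.0787% ± 0.0028 in KO (SD, n = 3 libraries each). The libraries of a genotype lay close together and the genotypes did not overlap, as the rule requires of each gene. In bulk tissue, fewer cells of a type and less RNA per cell cannot be told apart, so this share may follow either.

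The typical member differed by about the same factor in both directions. The log2 ratio of OX to WT ran from 0.59 to 3.25 with a median of 0.99, and that of KO to WT from -5.17 to -0.61 with a median of -1.10. The counts that follow, like these log2 ratios, use means with 0.1 CPM added. OX was at least 2-fold above WT in 49 members, KO was at least 2-fold below WT in 64, and both held in 29. At 4-fold, 2 members reached the minimum in OX and 12 in KO. The addition shrinks changes at low levels, so plain ratios of means would pass more members. Gene 36 of scaffold 117, for example, was 7.65-fold below WT in KO by plain means but had a log2 ratio of -1.99. In the OX to KO comparison the fitted log2 differences of members ranged from 1.21 to 7.72, with a median of 2.22 against -0.002 over all genes tested.

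The members just inside the minimums were little different from genes just outside. The 3 members with the lowest OX to WT log2 ratios had 0.5857, 0.5929 and 0.6083, and the nearest 3 genes that failed on this ratio alone had 0.5772, 0.5751 and 0.5725. For KO to WT the innermost members had -0.6091, -0.6101 and -0.6205, and the nearest outside had -0.5848, -0.5823 and -0.5705. In all, 81 genes met every condition except the OX minimum, 62 every condition except the KO minimum, 4 failed only because libraries overlapped, 8 failed only on level, and 6 met the rule but were on the skipped IDs.

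**Figure D2:**
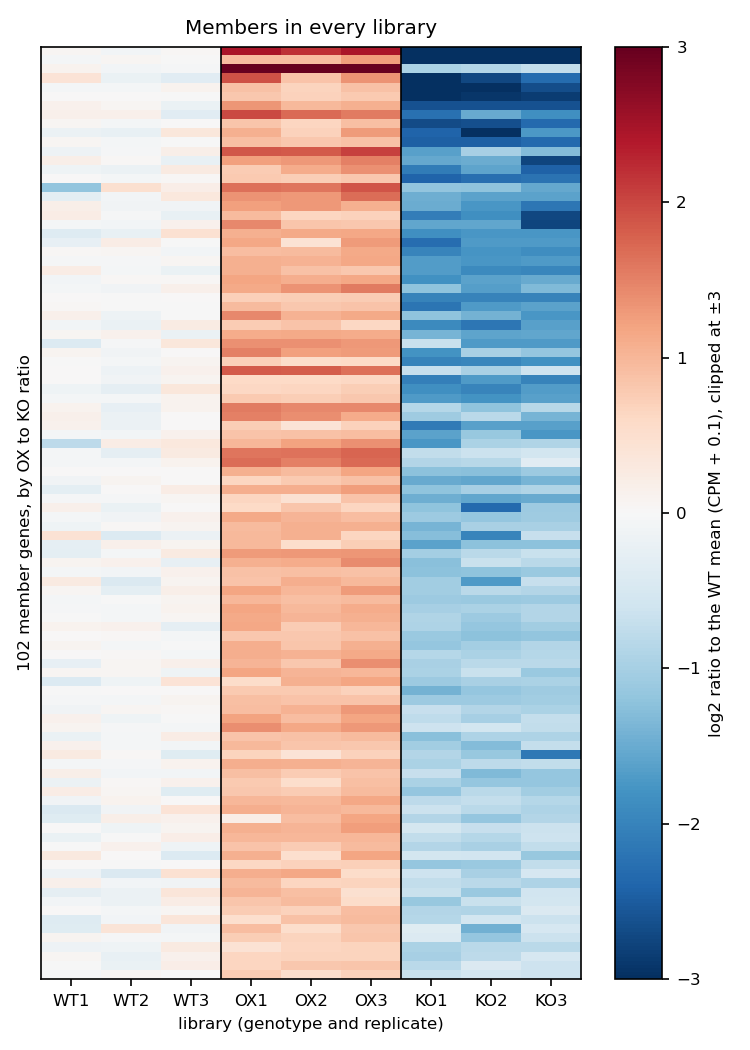
Log2 ratio of each of the 102 members in each of the 9 libraries to the mean of the WT libraries, with 0.1 CPM added and colours limited to ±3; rows are sorted by the ratio of OX to KO, highest at the top. OX columns are red and KO columns blue in every row, as the rule requires, and the strongest colours in KO are concentrated in the top rows.

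In the fit across all 14813 genes tested by edgeR's quasi-likelihood test, 96 of the 102 members were called higher in OX than in WT at a Benjamini-Hochberg adjusted p under 0.05, where 10.5% of all genes were. In KO, 97 of the members were called lower than WT, where 7.64% of all genes were. Both calls were made for 92 members, against 1.75% of all genes, and all 102 were called higher in OX than in KO, against 15.6%. The rule used these contrasts, so nothing is read from the gap to the background. All 102 members passed the filter on low counts. Of the 10 members without both calls, 4 had only the OX call, 5 only the KO call and 1 neither. The 259 genes with both calls include 167 that are not members, 161 of which missed a 1.5-fold minimum in OX, KO or both.

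**Figure D3:**
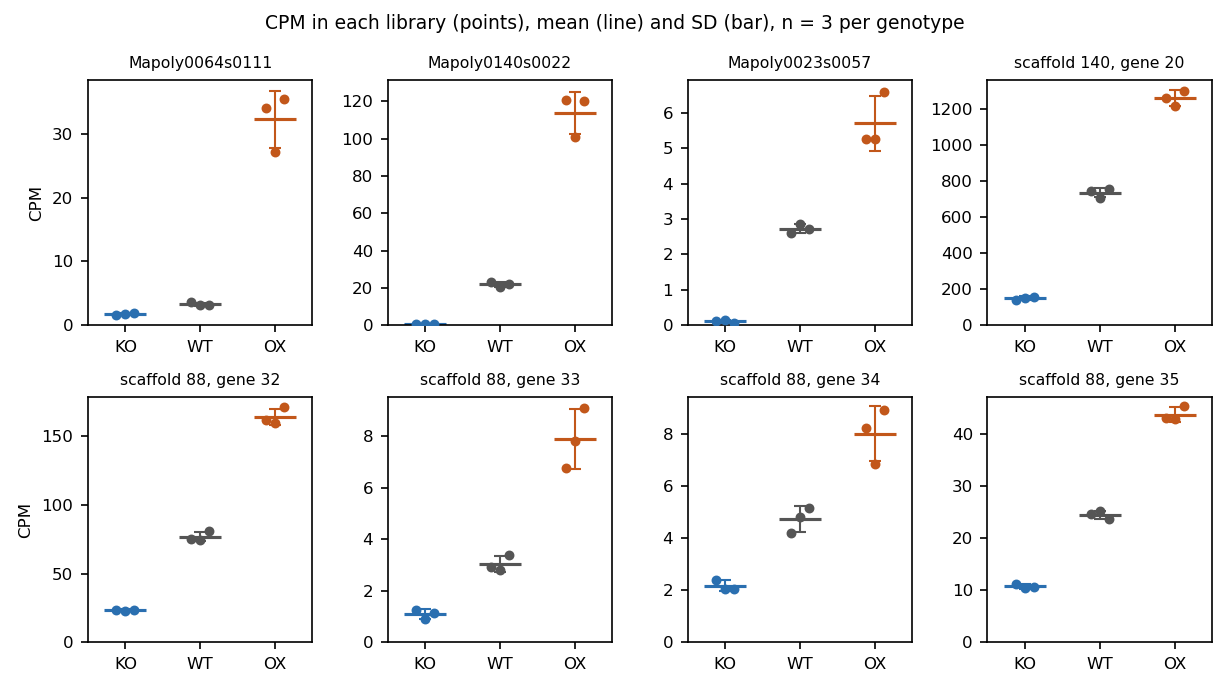
CPM of 8 members in every library (points) with the mean (line) and SD (bar) of 3 libraries in KO, WT and OX; each panel has its own axis from 0. In every panel the KO points lie below and the OX points above the WT points, with a steep step between WT and OX for Mapoly0064s0111 (from 3.31 to 32.3 CPM) and values near 0 in KO for Mapoly0140s0022 and Mapoly0023s0057.

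The member with the largest rise in OX was Mapoly0064s0111. It had 3.56, 3.12 and 3.24 CPM in WT replicates 1 to 3, 34.1, 27.2 and 35.5 CPM in OX, and 1.67, 1.77 and 1.98 CPM in KO. All OX libraries thus lay far above the others, and the step down to KO was small: OX was 9.76-fold above WT, and WT 1.83-fold above KO. The fitted log2 differences were 3.23 ± 0.12 (SE) for OX against WT and -0.85 ± 0.13 for KO against WT.

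Mapoly0140s0022 had the second largest rise in OX and the largest fall in KO among members with at least 5 CPM in a genotype. Its levels were 22.9, 20.5 and 22.3 CPM in WT, 121, 101 and 120 CPM in OX, and 0.593, 0.381 and 0.557 CPM in KO. It was close to off in KO, with 44 read pairs in the 3 libraries together, and clearly above the limit that a count of 0 allows. The fitted log2 differences were 2.33 ± 0.09 (SE) in OX and -5.39 ± 0.14 in KO, and the mean in OX was 223 times that in KO. The ratio of summed pairs, WT over KO, was 43.2 with a 95% exact binomial interval of 32.0 to 59.7.

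The second largest fall in KO was that of Mapoly0023s0057. WT libraries had 2.62, 2.86 and 2.72 CPM, OX libraries 5.26, 5.27 and 6.61 CPM, and KO libraries 0.105, 0.139 and 0.0696 CPM. The KO values lie at the detection limit, being 9 read pairs in all against 217 in WT, a ratio of 26.1 with a 95% interval of 13.5 to 57.8. In OX the mean was 2.09 times that in WT, so this gene nearly vanished in KO while it gained modestly in OX.

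By size of response, most members were balanced and a minority lopsided. These groups were drawn after the values were seen. They use the ratios with 0.1 CPM added, which shrinks changes at low levels, above all falls to near 0 in KO. The counts below therefore depend on that addition. Gene 29 of scaffold 76, for example, had log2 ratios of 1.72 in OX and -1.3 in KO, but fitted log2 differences of 2.01 and -2.21. In 62 members the log2 fall in KO and the log2 rise in OX differed by at most 0.5. In 17 members the fall in KO exceeded the rise in OX by 1 or more. These 17 had a median log2 ratio of 0.78 in OX and -2.32 in KO, and their WT levels ran from 0.730 to 735 CPM. In 3 members, led by Mapoly0064s0111, the rise in OX exceeded the fall in KO by 1 or more. Overall the fall was the larger change in 64 members and the rise in 38, with a median excess of 0.12 for the fall.

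A well-measured example of the 17 is gene 20 of scaffold 140, the most abundant member. It had 745, 706 and 755 CPM in WT, 1260, 1215 and 1301 CPM in OX, and 138, 153 and 158 CPM in KO. The spread among replicates was small beside the steps, which were 1.71-fold from WT to OX and 4.91-fold from KO to WT. This single gene supplied 30.7% to 31.9% of all member counts in WT libraries and 18.1% to 19.6% in KO libraries. At the other end of the scale, gene 44 of scaffold 104 had 58 read pairs in WT and 3 in KO, 1 in each KO library, a ratio of 20.9 with an interval of 6.81 to 104.

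Members were spread over the lower and middle range of expression. Their median WT level was 6.36 CPM, against 19.4 CPM for all genes tested, and their median levels were 13.4 CPM in OX and 2.16 CPM in KO. WT means were under 1 CPM in 19 members, 1 to under 10 CPM in 42, 10 to under 100 CPM in 38 and 100 CPM or more in 3. Genes at 100 CPM or more made up 2.94% of members and 13.2% of the genes tested. The minimum fold and level shape these numbers, so they only describe the set. Both calls were made for 11 of the 19 members under 1 CPM in WT and for 81 of the other 83. Calls over all genes tested were not split by level, so this difference cannot be read as a trait of the members.

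Within genotypes the libraries were not alike for all members. The median member lay at log2 ratios of -0.02, -0.06 and 0.06 to the WT mean in WT replicates 1 to 3, at 0.99, 0.92 and 0.99 in OX, and at -1.17, -1.17 and -1.10 in KO. Replicate 3 was the highest library of its genotype for 51 of the 102 members in WT, for 51 in OX and for 51 in KO. The same count was not made over all genes tested, so it cannot be read as a trait of the members. Among the 41 members with at least 10 CPM in WT, the SD of log2 CPM within a genotype had a median of 0.115, against 0.0749 for the 9295 tested genes with that minimum in WT. This SD covers all genotypes, while only a minimum level in WT was shared. Members are lower in KO by the rule, so the groups are not matched for counting error. Individual members differed more than the median SD, such as gene 24 of scaffold 161, with 30.7, 34.1 and 54.9 CPM in WT, 83.8, 88.1 and 90.1 CPM in OX and 11.0, 11.8 and 11.8 CPM in KO. Its WT replicate 3 stood well above the other WT libraries and still well below OX. The part of the replicate number in these differences was not tested.

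The rule did not use the position of genes, and part of the set lay side by side. The members fell on 65 scaffolds, 43 of which held 1 member and 9 of which held 3 or more. Of the 102 members, 19 (18.6%) carried a gene number directly next to another member, in 8 runs, 6 of them pairs. Within 5 gene numbers of another member lay 29 members (28.4%). Neighbours in gene number can be copies of one gene, and whether reads were split between near-identical copies was not tested. These runs are named by their values here, having been chosen after the positions were seen.

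The longest run was genes 32 to 35 of scaffold 88, a scaffold of 95 gene IDs with 5 members. Gene 32 was the strongest of the run, with 75.2, 74.8 and 81.2 CPM in WT, 162, 160 and 171 CPM in OX and 23.9, 23.0 and 23.6 CPM in KO. Gene 35 had 24.5 ± 0.76 CPM in WT, 43.6 ± 1.4 in OX and 10.8 ± 0.42 in KO (SD, n = 3 libraries each). Genes 33 and 34 were weaker, gene 33 going from 1.10 ± 0.18 CPM in KO through 3.04 ± 0.30 in WT to 7.90 ± 1.2 in OX and gene 34 from 2.17 ± 0.21 through 4.72 ± 0.49 to 8.00 ± 1.0. Across the run the log2 ratios stayed within 0.75 to 1.35 in OX and -1.71 to -1.09 in KO, although WT levels differed from 3.04 to 77.1 CPM.

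The run ended sharply on the side of gene 36. That gene is not a member and went the other way, from 84.4 ± 2.6 CPM in WT to 51.3 ± 1.4 in OX and 154 ± 17 in KO (SD, n = 3 libraries each). Its fitted log2 differences were -0.77 ± 0.07 (SE, edgeR adjusted p = 2.79e-05) in OX and 0.90 ± 0.07 (edgeR adjusted p = 1.76e-05) in KO. On the other side gene 31 was too low to be tested, with at most 0.0965 CPM in a genotype.

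The other run longer than a pair was genes 80 to 82 of scaffold 10. Gene 80 had 7.16, 8.04 and 7.88 CPM in WT, 14.8, 15.9 and 19.0 CPM in OX and 4.71, 4.13 and 3.90 CPM in KO. The 3 genes had nearly equal log2 ratios, 1.05 to 1.11 in OX and -0.84 to -0.62 in KO. The next gene number down, gene 79, shared the rise in OX but not the fall in KO. It had 1.29 ± 0.086 CPM in WT, 3.01 ± 0.088 in OX and 1.60 ± 0.089 in KO (SD, n = 3 libraries each), and passed edgeR's test in OX (adjusted p = 1.26e-04) and not in KO (adjusted p = 0.141). Gene 78, with 0.954 CPM in WT and 1.74 in OX, likewise passed in OX (edgeR adjusted p = 0.0274) and not in KO (adjusted p = 0.506). On the far side, gene 83 had 55.9 CPM in WT and was lower in OX, at 41.2 CPM (edgeR adjusted p = 4.04e-05).

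**Figure D4:**
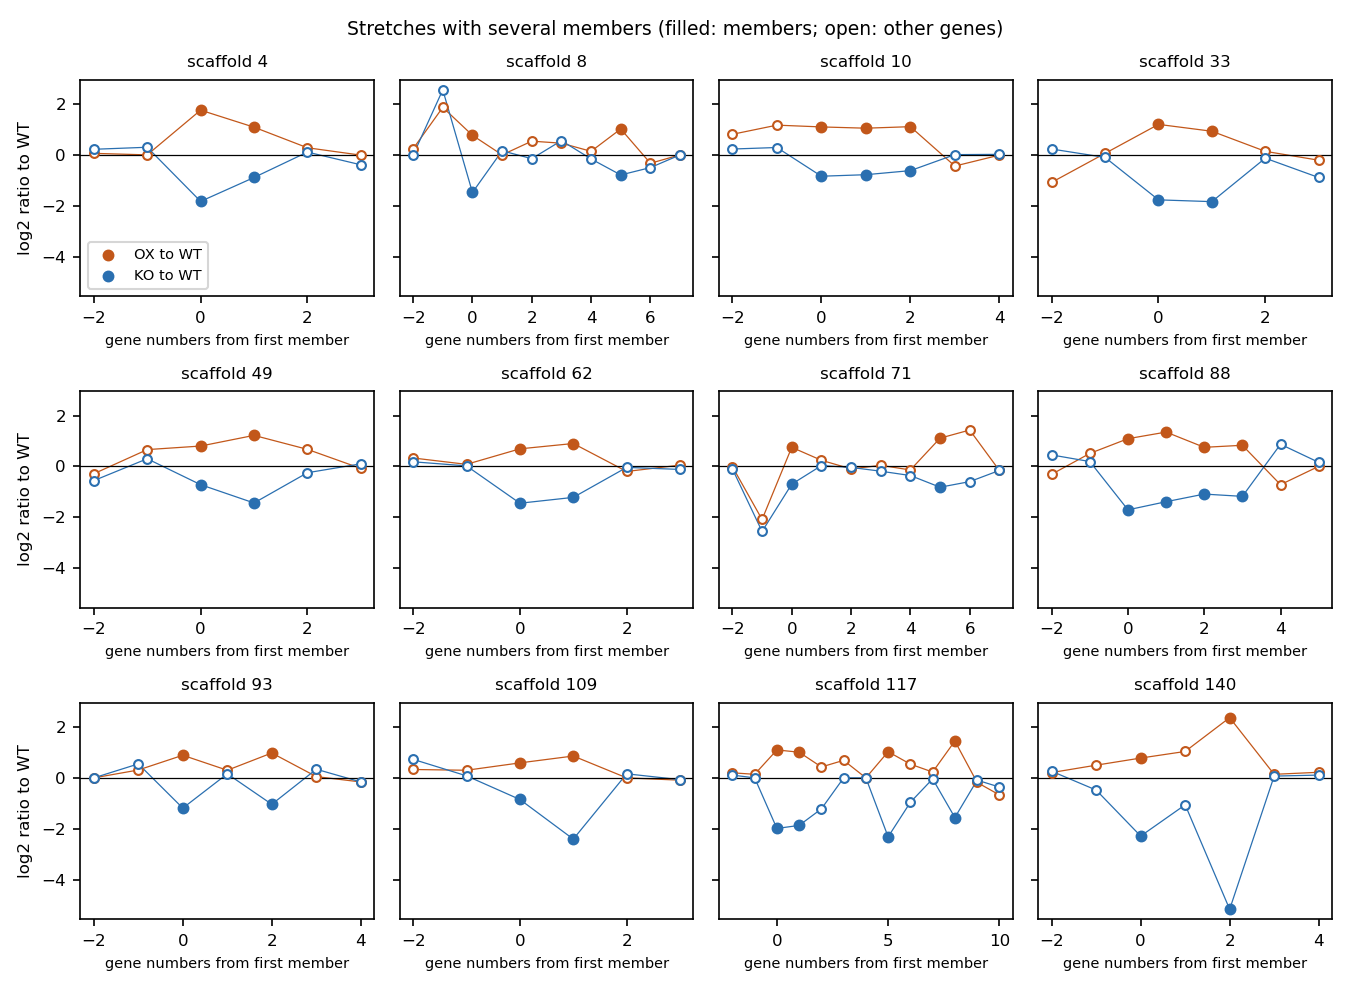
Log2 ratios of OX to WT (orange) and KO to WT (blue), each between group means with 0.1 CPM added, along 12 stretches that hold at least 2 members within 5 gene numbers of each other; filled points are members and open points other genes, and the horizontal axis counts gene numbers from the first member. The orange and blue lines part at the filled points, and on scaffold 88 they cross at the gene next to the run (0.75 to 1.35 in OX within the run, -0.72 at gene 36).

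Scaffold 117 held a looser group of 4 weakly expressed members, genes 36, 37, 41 and 44, among genes that were mostly lower still. Gene 36 had 0.0811 ± 0.053 CPM in KO, 0.620 ± 0.13 in WT and 1.44 ± 0.31 in OX (SD, n = 3 libraries each). Gene 37 was much the same, with 0.0811 ± 0.040, 0.560 ± 0.11 and 1.23 ± 0.38 CPM in the same order. Gene 44, the strongest, had 1.05 ± 0.25 CPM in WT, 3.04 ± 0.46 in OX and 0.290 ± 0.021 in KO. Gene 38 between them, not a member, was lower in KO (0.187 CPM in WT and 0.0232 in KO, edgeR adjusted p = 0.0198) and did not pass in OX (adjusted p = 0.427). The KO means of these members, gene 44 apart, are below the limit that a count of 0 allows in a single library. Genes 36, 37 and 41 each had 7 read pairs over the KO libraries together, so their reads were few but not absent. Gene 41 was not called higher in OX (edgeR adjusted p = 0.0824).

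On scaffold 140, gene 20 and Mapoly0140s0022 are separated by gene 21, which had 0.133, 0.378 and 0.0116 CPM in WT, OX and KO. Gene 21 stood in the same order as its neighbours at these very low levels and was called lower in KO (edgeR adjusted p = 0.0490) but not higher in OX (adjusted p = 0.0686). Gene 23, at 52.4, 57.6 and 55.1 CPM, did not pass in either comparison (edgeR adjusted p = 0.163 in OX and 0.152 in KO). The pair of genes 74 and 75 on scaffold 33 was alike in both directions. Gene 74 had 4.21 ± 0.96 CPM in KO, 14.6 ± 1.7 in WT and 33.9 ± 2.8 in OX (SD, n = 3 libraries each). Gene 75 stood at 9.04 ± 1.0, 32.7 ± 5.0 and 62.4 ± 5.6 CPM in the same order. The genes on both sides of this pair did not pass in either comparison, with edgeR adjusted p-values of 0.900 and 0.198 in OX and 0.461 and 0.202 in KO.

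Genes next to a member that are not members themselves were counted separately, since the rule did not choose them. Of 179 such genes, 134 were tested, and 24 (17.9%) were higher in OX, 20 (14.9%) lower in KO and 8 (5.97%) both. Among all 14711 non-members tested these shares were 9.91%, 7.04% and 1.14%. The share with both calls was 1.27% to 2.63% at distances of 2 to 5 gene numbers and 0.625% to 0.699% at 6 to 10. At distances of 2 to 5 these shares are 2 to 4 genes each, and at 6 to 10 they are 1 gene each. No test was made of them, and 1 gene does not show a share under that of all non-members. Calls against the direction of the members occurred there too: of the 134 adjacent genes, 21 were lower in OX and 8 higher in KO, where 14.3% and 6.51% of all genes tested were.

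In the 8 adjacent genes with both calls, at least 1 of the changes missed the rule. In OX their fitted log2 differences against WT lay between 0.30 and 0.65, in KO between -0.88 and -0.21, and 7 of the 8 had over 10 CPM in WT. Gene 21 of scaffold 193, which had the largest fall of the 8 in KO, had 23.8 CPM in WT, 34.6 in OX and 12.6 in KO. A pair of them, genes 25 and 27 of scaffold 55, flanked a member of that scaffold, gene 25 with 119, 160 and 248 CPM and gene 27 with 56.3, 86.9 and 129 CPM in KO, WT and OX. The member between them, gene 26, was much lower, at 0.712 CPM in WT, 1.30 in OX and 0.406 in KO. Whether reads of overlapping genes were assigned to one another was not tested.

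**Figure D5:**
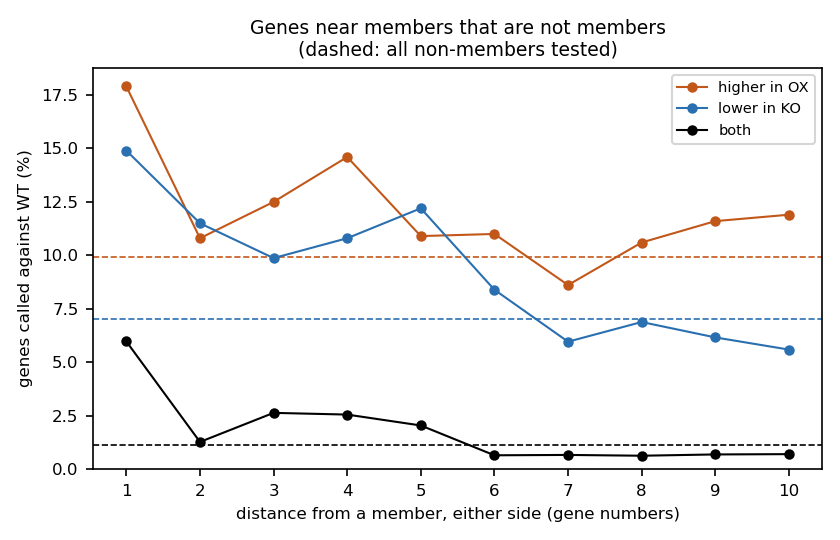
Percentage of tested non-members called higher in OX (orange), lower in KO (blue) or both (black), each against WT, by distance from a member in gene numbers; dashed lines give the same for all 14711 non-members tested. At distance 1 all 3 lines stand above their dashed line (17.9%, 14.9% and 5.97%). The black line is below its dashed line from distance 6, where each black point is 1 gene of 143 to 160 tested.

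The mirrored rules give the scale of these numbers. Genes lower in OX and higher in KO numbered 37, those higher in both 57 and those lower in both 165. The comparisons with WT share the WT libraries, so that the same-direction and opposite-direction sets cannot be weighed against each other. Directly adjacent members made up 13.5%, 15.8% and 17.6% of those sets, against 18.6% here. Members within 5 gene numbers of another made up 21.6%, 24.6% and 38.2%, against 28.4% here, so the set lower in both had the larger share at that distance. Sets of different size hold different numbers of neighbours by their size alone, and no test of these shares was made. The mirror image, lower in OX and higher in KO, stood at a median of 2.46 CPM in WT, with median log2 ratios of -1.11 in OX and 0.88 in KO.

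The numbers of the 2 opposite-direction sets and of the set lower in both depended on the scaling of the libraries. With TMM factors, which align the libraries on the bulk of genes, the rule gave 92 genes in place of 102, all of them members, and 48 genes in place of 37 for the mirror image. The set lower in both held 152 genes in place of 165, with 149 shared. The set higher in both held 57 genes under either scaling, with 54 shared. The TMM factors were 1.02 to 1.04 in OX, 0.986 to 1.01 in WT and 0.958 to 0.987 in KO. In each of the 20 fits made, no member tested had a fitted difference with the opposite sign in either comparison. The fits used the libraries that chose the members, so this sign follows from the rule and is not evidence for the members. With a filter of at least 1 CPM in 3 libraries 98 members were tested, and in the fits on 2 genotypes 101.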

How the data were processed

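RNA of whole thalli from 9 samples, 3 per genotype, was sequenced. The library codes in the labels all begin alike, and no label says what the parts of a code stand for. The deposited values are raw counts per gene; the submitters' processing notes list STAR 2.5.1b and featureCounts 1.5. Tool settings, strand use and genome build: not given in the sources used here. The row names carry version 3.1 of the gene models. There were 0 columns of other samples. Of the IDs, 0 matched the name table (assembly MpTak2_v7.1, 18391 rows). The members, lists and tests were chosen with earlier results of these data known, and the lists by product name could not be used.

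CPM were computed from column totals. Counts were fitted with edgeR 4.0.16 in R 4.3.3 after filterByExpr and TMM scaling, with 1 mean per genotype over all 9 libraries and Benjamini-Hochberg adjustment over 14813 genes; fitted log2 differences and standard errors come from it. The edgeR, DESeq2 and limma-voom fits were tested on simulated data. The settings and outcome of that test are not given here, so nothing is read from it about these libraries. Replicate pairs of a genotype differed by 6.25 to 17.0 in chi-square per degree of freedom, so none was treated as a duplicate. IDs were printed for the 2 members with the largest fitted rise in OX and the 2 with the largest fitted fall in KO, with at least 5 CPM in a genotype; 1 gene was in both pairs. Alternatives were other scalings and filters, DESeq2 1.42.0, limma-voom (limma 3.58.1), a replicate block, fits on 2 genotypes, halved counts and leaving out each library.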

Additional observations from a re-analysis of the deposited data

How the results depend on the processing

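The set held 102 genes, and 102 to 107 when 1 library was left out, of which 94 to 101 were members; with a log2 ratio of at least 1 in both comparisons it held 29. Pseudocounts of 0.5 and 1 gave 87 and 73 genes. The number of members directly next to another was 19, 29 within 5 gene numbers, and 4 with the 2-fold minimum, where fewer genes enter. Leaving out 1 library gave 82 to 97 members called higher in OX, 83 to 95 called lower in KO and 77 to 86 called in both. The median fitted difference was then 0.93 to 1.01 in OX and -1.18 to -1.13 in KO. Over all genes, 2680 to 3667 were called in OX against WT, 1293 to 2076 in KO against WT (1293 without KO replicate 2) and 4063 to 5332 in OX against KO. These calls are in either direction, so they do not match the 1-direction counts of members. Genes called both higher in OX and lower in KO numbered 183 to 226 over all genes, against 259 with every library. The fits of the 3 named genes kept their direction and call under every alternative run except Mapoly0064s0111 in KO, which limma-voom did not call (-0.85, adjusted p = 0.058; 1.04e-06 to 0.011 under the others). With the replicate block, 3516 genes were called in KO against WT in place of 2096, and the cause was not tested; it moved no count of members by over 1.5 times. The labels do not say what a replicate number stands for. Deviations of same-numbered libraries from their genotype means correlated at 0.0306 to 0.411, over 0.1 in 7 of 9 pairs, and all 9 libraries correlated best with their own number, a hint from the data and not the design. Of the 19 members under 1 CPM in WT, 11 had both calls. The same share was not computed for all tested genes at that level, and the part of depth in this was not tested.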
